A study of Mus musculus with 108 samples.

Results

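The 10 genes described here encode the core of transforming growth factor beta (TGF-beta) signalling: the ligands Tgfb1, Tgfb2 and Tgfb3, the latency proteins Nrros (older symbol Lrrc33) and Ltbp1, the receptors Tgfbr1 and Tgfbr2, and the signal proteins Smad2, Smad3 and Smad7. They were taken by symbol from 49585 genes counted in 108 RNA-seq libraries, where all 10 were present, Lrrc33 as Nrros. The libraries came from myeloid cells that were purified by FACS from Balb/C athymic nude mice (CAnN.Cg-Foxn1nu/Crl), a strain that lacks a thymus and therefore most T cells, in a model in which lung tumour cells form metastases in the brain. All 28 groups share this strain. The labels name neither the tumour cell line nor the ages, and they give no sorting gates.

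Tumour-bearing brains gave bone marrow-derived macrophages (BMDM), which enter the brain from the blood, microglia, the macrophages that reside in the brain, granulocytes and inflammatory monocytes. After whole-brain radiotherapy each of these 4 populations was taken on day 3 (4 libraries each), day 5 (4 each) and day 10 (3 each) of a schedule of 5 fractions of 2 Gy (5x2 Gy), or on day 3 of a single fraction of 10 Gy (1x10 Gy, 3 each). These irradiated samples were not stratified by tumour stage, and the event from which days are counted is not stated. Without radiotherapy the same populations were taken at a small tumour stage (5 libraries each of BMDM and microglia, 4 each of granulocytes and monocytes) and a large one (5 each). Mice without tumours gave microglia (4 libraries), blood monocytes (4 libraries) and a further 3 and 3 microglia libraries whose titles carry 5x2 with D3 or D5 while their radiotherapy field says none. These last ones are called titled day 3 and titled day 5 below and were kept apart. Whether replicate libraries stem from different mice is not stated, so each p-value measures the spread between these libraries, which may be technical.

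As background, TGF-beta ligands are secreted in a latent form, in which a prodomain holds the ligand and is itself tethered to a matrix protein such as LTBP1 or, on macrophages and microglia, to NRROS. Once freed, for example by integrins, the ligand binds TGFBR2, which recruits and activates TGFBR1, and this kinase phosphorylates SMAD2 and SMAD3, which enter the nucleus with SMAD4. SMAD7 is induced by the pathway and blocks the receptor. Microglia need this signal to keep their identity: in mice, loss of Tgfb1 or Nrros in the brain, or of Tgfbr2 in microglia, lowers genes such as P2ry12 and Sall1.

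Total counts ran from 985423 to 18642747 per library with a median of 11362593.5. Levels are counts scaled to library size (CPM, with TMM factors over all libraries), and differences are log2 fold changes ± SE from edgeR's quasi-likelihood test, with Benjamini-Hochberg adjusted p-values over all genes tested and a threshold of 0.05. Summed over 6 markers each, the granulocyte list reached 13222 to 39022 CPM in tumour granulocytes, against 380.1 to 593 in tumour monocytes. The microglia list reached 954 to 5302 CPM in tumour BMDM, against 4570 to 11834 in tumour microglia, so that these last ranges overlapped. Sums of the monocyte list, given below, were low in some blood monocyte and BMDM libraries. In bulk samples, fewer cells of a kind and less RNA per cell cannot be told apart. There were 12 libraries of doubtful quality by depth, number of genes detected or abundant genes at 0, among them blood monocytes 1, 2 and 3, tumour-free microglia 2 and 3, small-stage microglia 1 and 4, small-stage granulocytes 1 and large-stage BMDM 2.

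Across the 28 groups the receptors and Nrros were the most abundant members. Scaled per kilobase of exon, large-stage microglia held Tgfbr1 at 122 ± 28 (SD, n = 5) CPM per kb, Nrros at 108 ± 22 and Tgfbr2 at 80.7 ± 12, followed by Tgfb1 at 24.0 ± 11, Smad3 at 13.5 ± 3.8, Smad7 at 12.8 ± 6.4 and Smad2 at 9.72 ± 1.5. Tgfb3 stood at 0.374 ± 0.24, Tgfb2 at 0.0246 ± 0.022 and Ltbp1 at 0.00888 ± 0.013 CPM per kb there. In large-stage granulocytes Nrros reached 110 ± 29, Tgfbr1 105 ± 25 and Smad3 29.9 ± 17 CPM per kb, and in blood monocytes Nrros reached 90.0 ± 72 and Tgfbr1 14.7 ± 11 (n = 4). When the 28 group means of a member were put in order, neighbours overlapped between libraries in 27 of 27 pairs for 9 members and in 26 of 27 for Tgfbr1. The only step without overlap was that of Tgfbr1 from large-stage BMDM (392 CPM) down to blood monocytes (95.8 CPM).

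Tgfb1, the main TGF-beta ligand of immune cells (ENSMUSG00000002603, chr7:25687002-25705077, plus strand, GRCm38), was read in every library. Its group means ran from 132 to 191 CPM in the 6 tumour monocyte groups, from 77.2 to 131 in the 9 microglia groups, from 53.0 to 150.2 in the 6 granulocyte groups and from 73.6 to 114 in the 6 BMDM groups, and stood at 52.2 in blood monocytes. Tumour monocytes held 215, 294, 172 and 44.8 CPM at the small stage and 199, 189, 167, 197 and 51.0 at the large stage, against 54.6, 38.0, 56.6 and 59.6 in blood monocytes. Of these 9 tumour libraries 7 lay above every blood library, and small-stage library 4 and large-stage library 5 lay within the range of the blood libraries. Tgfb1 was called higher in tumour monocytes than in blood monocytes, by 1.33 ± 0.43 (edgeR adjusted p = 0.0347), a call lost in 9 of 19 alternatives, among them without blood library 1, 2 or 3 (adjusted p = 0.0746, 0.0935 and 0.0755).

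Low Tgfb1 levels often fell in libraries that also stood out by another measure. In 15 of the 28 groups the Tgfb1 level of 1 library was more than 2 times lower than that of the next lowest, and in 12 of those 15 it was the library with the highest share of counts in processed pseudogenes, which are gene copies made from spliced RNA. At the large stage these were library 5 of BMDM (26.8 CPM, against 76.0 to 117 in the others), of microglia (32.9, against 105 to 169), of granulocytes (33.1, against 71.7 to 96.4) and of monocytes (51.0, against 167 to 199). The pseudogene share of the monocyte library was 4.88%, against 2.76 to 3.57% in the others of its group, while blood monocytes held 4.0 to 5.55%. In granulocytes the share hardly varied: large-stage library 5 had 2.22%, against 2.02 to 2.32% in the others. With that share as a covariate, a fit added after the data were seen, the difference between tumour and blood monocytes was 0.22 ± 0.39 (edgeR adjusted p = 0.693). Only small-stage library 4 (4.63%) and large-stage library 5 of the tumour monocytes reached the share of the blood libraries. As share and population largely go together here, that fit cannot tell them apart, and nothing is concluded from the lost call. BMDM held 26.8 to 126 CPM of Tgfb1 with a median of 89.0, against 44.8 to 294 CPM with a median of 189 in tumour monocytes. This difference was just short of the threshold, at -0.96 ± 0.35 (edgeR adjusted p = 0.0731), and passed it in 6 of 25 alternatives, among them DESeq2 (adjusted p = 0.043), no filter on low counts (adjusted p = 0.0216) and the covariate (-0.74 ± 0.16, adjusted p = 0.00392).

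**Figure D1:**
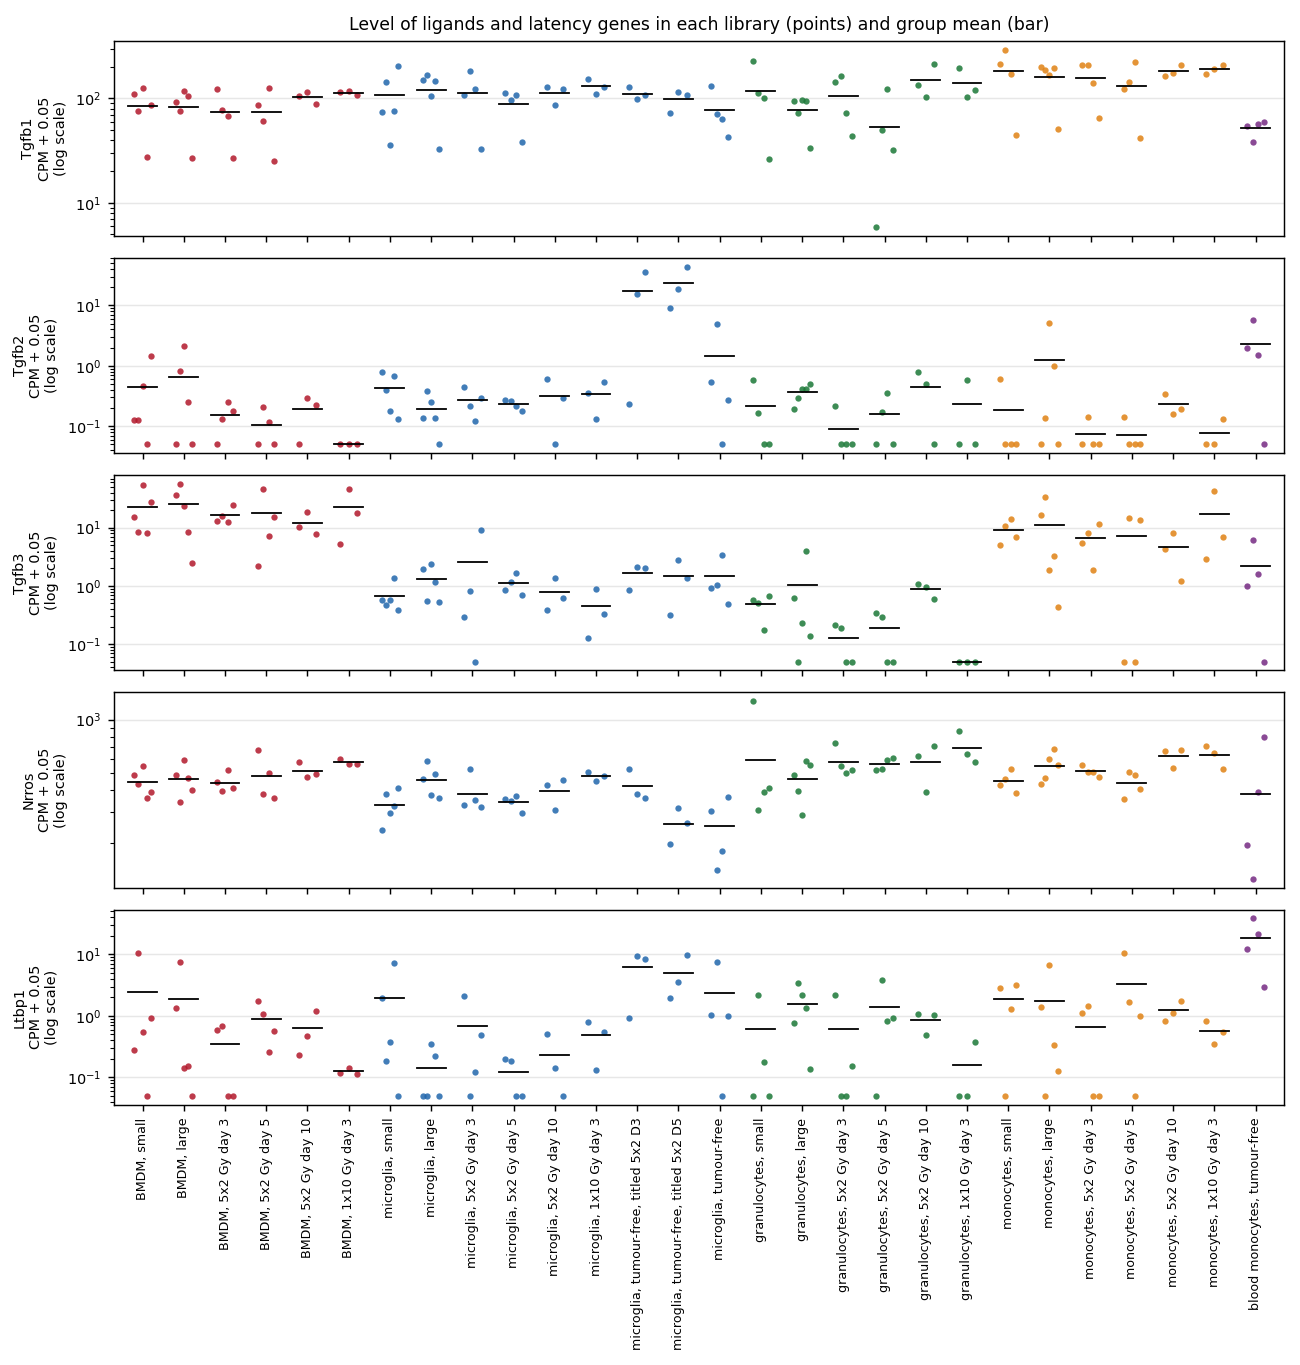
Level of Tgfb1, Tgfb2, Tgfb3, Nrros and Ltbp1 in CPM plus 0.05 on a log scale (y axis) in each of the 108 libraries, by group (x axis); points are libraries and bars are group means. The Tgfb1 panel has single low points in many groups, such as 51.0 CPM in large-stage monocytes. In the Tgfb3 panel the BMDM points of unirradiated tumours lie above the microglia points of unirradiated tumours. Some irradiated BMDM and tumour-free microglia points fall outside that order.

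Tgfb2 (ENSMUSG00000039239, chr1:186622792-186705989, minus strand, GRCm38) was close to absent from nearly all myeloid libraries. Its highest group means were in titled day 5 and titled day 3 microglia, with 8.96, 18.5 and 43.6 CPM on titled day 5 and 0.184, 15.3 and 36.3 CPM on titled day 3. Tumour-free microglia held 0.498, 4.83, 0 and 0.221 CPM, so that 5 of the 6 titled libraries were above all 4 of them. The difference was 3.70 ± 1.10 on titled day 5 (edgeR adjusted p = 0.0686) and 3.23 ± 1.09 on titled day 3 (edgeR adjusted p = 0.0784), neither past the threshold, where 1.35% and 1.91% of all genes were called. Both differences depended on tumour-free library 2, which is of doubtful quality and held 4.83 CPM. Without it tumour-free libraries 1, 3 and 4 held 4, 0 and 5 counts, so no fold is given. The edgeR adjusted p-values were then 0.00948 on titled day 5 and 0.0145 on titled day 3. Because Tgfb2 passed the filter on low counts through the groups where it was high, these p-values are not read as support. Tgfb2 also passed without a filter on low counts on both days (adjusted p = 0.0385 and 0.0494), and on titled day 5 with DESeq2 (adjusted p = 0.0287) and without the doubtful libraries (adjusted p = 0.0260). No other member was called in those 2 comparisons.

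The promoters of these 2 ligands are shown because their levels differ most among the ligands. Each is the 300 bases around a RefSeq transcription start (GRCm38.p6), from 250 bases before it to 50 after it, in capitals where the letters match 1 of 4 motifs searched on both strands: GAGGAAG, bound by the myeloid factor PU.1 and held by 13.6% of 32851 promoters of that length; CAGACA, the SMAD-binding CAGA box, held by 21%; GGGCGG, the GC box, held by 35.7%; and TATAAA, the TATA box, held by 13.6%. The capitals are matches of letters, not sites known to be used.
Tgfb1, chr7:25686752-25687051, plus strand: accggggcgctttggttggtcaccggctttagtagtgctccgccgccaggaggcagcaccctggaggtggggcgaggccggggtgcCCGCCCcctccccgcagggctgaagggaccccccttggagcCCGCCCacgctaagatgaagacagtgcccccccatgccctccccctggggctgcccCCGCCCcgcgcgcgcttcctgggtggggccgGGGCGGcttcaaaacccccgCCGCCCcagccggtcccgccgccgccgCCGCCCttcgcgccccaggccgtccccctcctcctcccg
Tgfb2, chr1:186705940-186706239, minus strand: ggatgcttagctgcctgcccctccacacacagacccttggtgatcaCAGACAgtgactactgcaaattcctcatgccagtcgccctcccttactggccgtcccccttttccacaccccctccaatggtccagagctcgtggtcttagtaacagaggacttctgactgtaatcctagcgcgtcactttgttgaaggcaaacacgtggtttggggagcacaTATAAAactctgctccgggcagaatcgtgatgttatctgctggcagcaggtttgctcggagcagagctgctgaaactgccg
The Tgfb1 window has 77.0% G and C with 6 GC boxes in capitals, while the Tgfb2 window has 54.3% G and C with 1 CAGA box and 1 TATA box 31 bases before the start. The median promoter has 52.7% G and C.

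In 3 comparisons Tgfb2 was called lower in microglia of tumour-bearing brains than in those without a tumour. At the small stage it was not (edgeR adjusted p = 0.166). Counts were few on the tumour side, and Tgfb2 passed the filter on low counts through the groups where it was high, so counts are given in place of fold changes. On day 3 of 5x2 Gy it held 0.395, 0.169, 0.0738 and 0.247 CPM, against 0.184, 15.3 and 36.3 CPM in titled day 3 microglia, which is 12 counts in all against 855 (edgeR adjusted p = 0.00131). On day 5 it held 0.222, 0.207, 0.165 and 0.132 CPM, against 8.96, 18.5 and 43.6 CPM in titled day 5 microglia, with no overlap, which is 10 counts in all against 968 (edgeR adjusted p = 0.000465). Large-stage microglia held 0.0865, 0.337, 0.201, 0.0869 and 0 CPM, at most 4 counts per library, and 8 in all against 59 in tumour-free microglia (edgeR adjusted p = 0.0132). This last call rested on tumour-free library 2, a library of doubtful quality with 50 of the 59 counts of its group: without it the adjusted p was 0.539. Tgfb2 overlaps the antisense gene Gm29491, and the strand of counting is not given in the sources used here, so reads of the 2 could not be told apart.

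Astrocyte markers also differed between these groups. Summed over 10 markers they reached 188 to 281 CPM on day 3 and 138 to 416 CPM on day 5 of 5x2 Gy, against 573 to 3136 CPM in titled day 3 and 1415 to 2727 CPM in titled day 5 microglia. In small-stage and large-stage microglia they reached 134 to 365 and 169 to 376 CPM, against 1005 to 1652 CPM in tumour-free microglia. Of the 10 markers 9 were called lower in each comparison with a titled group and 8 in each comparison with tumour-free microglia, and none was at 0 in every library of these groups. Library by library the astrocyte sum did not always follow Tgfb2. Tumour-free libraries 1 and 4 held sums of 1171 and 1652 CPM with 0.498 and 0.221 CPM of Tgfb2. Titled day 5 library 1 held 1415 CPM with 8.96 CPM of Tgfb2. Summed epithelial markers were 0.249, 13.3, 6.82 and 0.266 CPM in tumour-free libraries 1, 2, 3 and 4. In titled day 3 libraries 1, 2 and 3 they were 0.919, 45.8 and 88.6 CPM, with 0.184, 15.3 and 36.3 CPM of Tgfb2. Titled day 5 libraries 1 and 2 held epithelial sums of 22.0 and 50.8 CPM with 8.96 and 18.5 CPM of Tgfb2. Tumour-free libraries 2 and 3 held 4.83 and 0 CPM of Tgfb2. The part of either list in the result was not tested.

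Tgfb3 (ENSMUSG00000021253, chr12:86056745-86079041, minus strand, GRCm38) was the ligand that differed most between the macrophages from the blood and the microglia. Tumour BMDM held 15.3, 8.35, 53.4, 7.97 and 27.6 CPM at the small stage and 36.3, 56.2, 23.9, 8.34 and 2.45 at the large stage, against 0.329 to 2.31 CPM with a median of 0.520 in the 10 tumour microglia libraries. Every BMDM library was above every microglia library, although the lowest, large-stage library 5 at 2.45 CPM, only just. Tgfb3 was higher in BMDM by 4.75 ± 0.59 (edgeR adjusted p = 3.83e-06), and this call was kept under all 26 alternatives run.

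Tumour monocytes also expressed it. They held 0.380 to 33.6 CPM with a median of 6.79, and the difference of BMDM from them was 1.35 ± 0.67 (edgeR adjusted p = 0.201). Tumour granulocytes held 0 to 4.0 CPM with a median of 0.467, at 0 to 22 counts per library, lower than tumour monocytes by a log2 change of -3.70 ± 0.88 (edgeR adjusted p = 0.00144). BMDM were above blood monocytes, which held 0.946, 6.07, 1.57 and 0 CPM, by 3.09 ± 1.05 (edgeR adjusted p = 0.0357), a call lost in 7 of 20 alternatives, among them RLE scaling (2.56, adjusted p = 0.0788) and the pseudogene share as a covariate (1.97, adjusted p = 0.112).

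Beside the difference from microglia, dendritic-cell markers were also high in BMDM. Summed over 8 markers they reached 381 to 3406 CPM in tumour BMDM with a median of 1926, against 39.6 to 284 CPM in tumour microglia, and 7 of 8 were called higher. In tumour monocytes the same sum was 40.3 to 284 CPM and all 8 were lower than in BMDM. None of the 8 was at 0 in any of these groups, and their part in the Tgfb3 result was not tested. Exons of Tgfb3 overlap those of Gm37804 and Gm48008, and the gene overlaps Ttll5 on the other strand, so its reads could not be fully told apart from theirs.

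**Figure D2:**
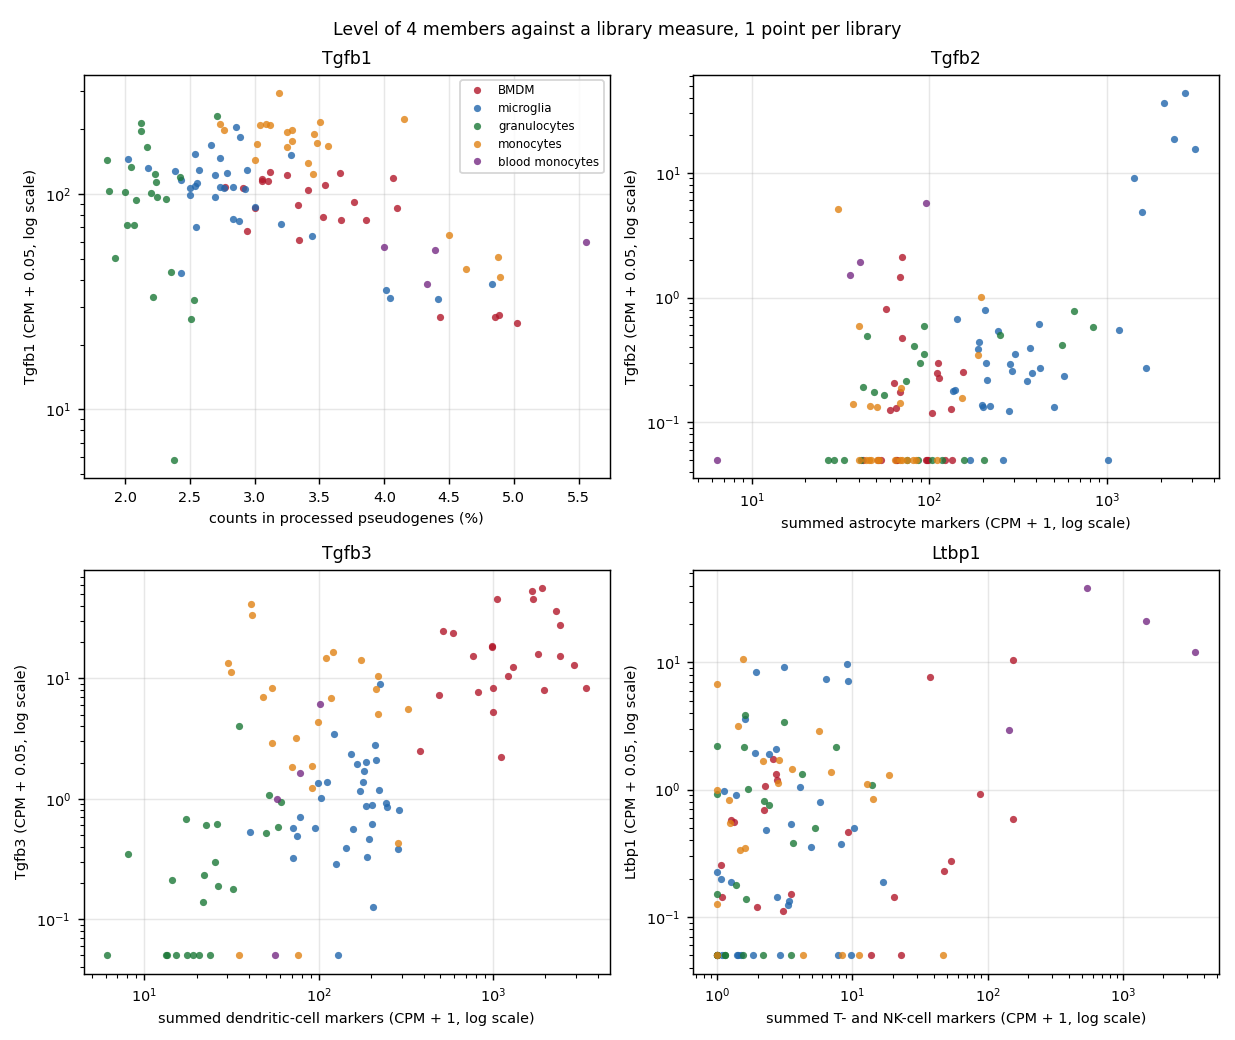
Level of Tgfb1, Tgfb2, Tgfb3 and Ltbp1 in CPM plus 0.05 on a log scale (y axes) against the percent of counts in processed pseudogenes or the summed CPM plus 1 of astrocyte, dendritic-cell or T- and NK-cell markers (x axes, log scale for the sums), 1 point per library, coloured by population. Tgfb1 is low in most, but not all, microglia, BMDM and monocyte libraries with about 4 to 5% of counts in pseudogenes. Monocyte library 3 on day 5 of 5x2 Gy has 222 CPM at 4.15%, and BMDM library 2 on day 3 of 1x10 Gy has 118 CPM at 4.07%. The highest Tgfb2, Tgfb3 and Ltbp1 levels lie in libraries with high astrocyte, dendritic-cell and T- and NK-cell sums.

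Nrros (ENSMUSG00000052384, chr16:32142785-32165594, minus strand, GRCm38), the anchor of latent TGF-beta on myeloid cells, was high in all 5 populations. Group means ran from 459 to 689.7 CPM in granulocytes, 439 to 572 in BMDM, 436 to 625 in tumour monocytes and 247 to 476 in microglia, and stood at 376 in blood monocytes, whose libraries spread from 124 to 798. Large-stage microglia held 458, 578, 372, 488 and 357 CPM, against 304, 139.6, 180.0 and 365 CPM in tumour-free microglia. Only library 4 of the tumour-free microglia reached into the large-stage range. Nrros was higher at the large stage by 0.75 ± 0.21 (edgeR adjusted p = 0.00787), and not called at the small stage (0.41 ± 0.21, edgeR adjusted p = 0.176). The large-stage call was lost when the 2 groups were fitted alone (adjusted p = 0.132) and without the libraries of doubtful quality (adjusted p = 0.217).

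Ltbp1 (ENSMUSG00000001870, chr17:75005568-75392512, plus strand, GRCm38), which binds the latent ligand to the extracellular matrix, had its highest levels in blood monocytes. Tumour monocytes held 2.82, 0, 1.25 and 3.12 CPM at the small stage and 1.33, 0, 6.74, 0.286 and 0.0760 at the large stage, against 12.1, 38.2, 21.1 and 2.90 CPM in blood monocytes. Only blood library 4, the one not of doubtful quality, lay within the tumour range. The log2 difference was -4.03 ± 1.09 (edgeR adjusted p = 0.0153), and for BMDM against blood monocytes -3.56 ± 1.21 (edgeR adjusted p = 0.0357). Without blood library 2 the edgeR adjusted p-values were 0.0956 and 0.167. The BMDM call was also lost without blood library 1 or 3 (edgeR adjusted p = 0.0531 and 0.0698). Leaving out a single BMDM library, such as small-stage library 4, could end it too (edgeR adjusted p = 0.0516). Without the doubtful libraries, which leaves 1 blood library, the differences were -0.71 ± 2.13 for tumour monocytes and -1.62 ± 2.07 for BMDM.

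T- and NK-cell markers were also higher in blood monocytes. Summed over 7 markers they reached 0 to 46 CPM in tumour monocytes and 0 to 155 CPM in BMDM, against 143 to 3453 CPM in blood monocytes, and B-cell markers 0 to 16.8 CPM in tumour monocytes, against 66.0 to 292 CPM in blood monocytes. Among the blood libraries, Ltbp1 was highest in library 2 and the T- and NK-cell sum in library 1, while library 4 was lowest in both. Of the T- and NK-cell markers tested, 4 of 4 were lower in tumour monocytes and 6 of 6 in BMDM. None of the 7 was at 0 throughout a group, while the B-cell marker Pax5 was at 0 in large-stage monocytes, and their part in the result was not tested. In microglia Ltbp1 counts were few: the 5 large-stage libraries held 5 counts in all, with 3 libraries at 0, and the 4 tumour-free libraries 105 counts, of which 76 in library 2. No fold is given, and the call (edgeR adjusted p = 0.0148) was lost without tumour-free library 2 (adjusted p = 0.143).

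Tgfbr1 (ENSMUSG00000007613, chr4:47353222-47414931, plus strand, GRCm38) encodes the type I receptor kinase and Tgfbr2 (ENSMUSG00000032440, chr9:116084293-116175360, minus strand) the type II receptor that binds the ligand. Both were lower in BMDM than in microglia of the same tumours, together with Smad3 (ENSMUSG00000032402, chr9:63646767-63757994, minus strand) and the inhibitory Smad described below. The promoters of the first 3 are shown because these genes moved in 1 direction, with the same 4 motifs in capitals.
Tgfbr1, first start, chr4:47352972-47353271, plus strand: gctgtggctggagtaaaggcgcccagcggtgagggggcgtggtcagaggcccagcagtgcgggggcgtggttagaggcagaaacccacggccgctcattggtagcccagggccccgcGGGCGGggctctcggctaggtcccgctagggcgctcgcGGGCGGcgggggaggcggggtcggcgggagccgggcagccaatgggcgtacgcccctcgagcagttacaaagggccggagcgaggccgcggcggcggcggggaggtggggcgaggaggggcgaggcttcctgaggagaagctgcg
Tgfbr1, second start, chr4:47385966-47386265, plus strand: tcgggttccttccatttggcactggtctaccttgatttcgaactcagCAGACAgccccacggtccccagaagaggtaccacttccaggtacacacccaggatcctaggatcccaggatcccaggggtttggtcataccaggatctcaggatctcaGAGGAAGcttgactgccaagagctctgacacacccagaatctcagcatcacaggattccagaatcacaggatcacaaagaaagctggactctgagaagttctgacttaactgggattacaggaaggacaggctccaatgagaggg
Tgfbr2, chr9:116175314-116175613, minus strand: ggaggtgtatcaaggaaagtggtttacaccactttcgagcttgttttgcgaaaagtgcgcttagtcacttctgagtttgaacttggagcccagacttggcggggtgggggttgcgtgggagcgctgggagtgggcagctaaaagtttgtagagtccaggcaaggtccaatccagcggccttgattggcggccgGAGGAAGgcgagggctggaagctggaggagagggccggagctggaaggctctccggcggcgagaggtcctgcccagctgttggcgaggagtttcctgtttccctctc
Smad3, chr9:63757945-63758244, minus strand: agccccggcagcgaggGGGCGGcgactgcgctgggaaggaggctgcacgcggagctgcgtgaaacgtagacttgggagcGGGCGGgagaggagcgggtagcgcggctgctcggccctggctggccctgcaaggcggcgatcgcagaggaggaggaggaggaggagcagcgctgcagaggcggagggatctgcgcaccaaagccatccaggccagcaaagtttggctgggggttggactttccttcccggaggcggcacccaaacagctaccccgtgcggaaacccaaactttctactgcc
The first start of Tgfbr1 and that of Smad3 hold 2 GC boxes each, in windows of 74.7% and 67.7% G and C. The second start of Tgfbr1 holds no GC box, 1 CAGA box and 1 match to the PU.1 letters, with its first base 95 bases before the start. Tgfbr2 holds no GC box and 1 match to the PU.1 letters, with its first base 57 bases before the start, in a window of 59.0% G and C. The counts are per gene and do not tell the starts apart.

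Between BMDM and microglia of unirradiated tumours, 5 of the 10 members passed the threshold, 1 higher (Tgfb3) and 4 lower, where 29.9% of 15103 genes passed, 16.1% higher and 13.8% lower. The median difference was -0.24 over the members and -0.04 over all genes. Tgfbr1 reached 186 to 776 CPM with a median of 416 in BMDM, against 423 to 1918 CPM with a median of 931 in microglia, and was lower by a log2 change of -1.15 ± 0.22 (edgeR adjusted p = 0.000508). Most BMDM libraries lay below most microglia libraries, with overlap from small-stage BMDM library 4 (776) and small-stage microglia library 4 (423). For Tgfbr2 the values were 175 to 789 CPM with a median of 313 in BMDM, against 419 to 769 CPM with a median of 679.7 in microglia (-0.83 ± 0.21, edgeR adjusted p = 0.00474). Here large-stage BMDM library 5, at 789 CPM, was above all 10 microglia libraries. The same library had the lowest Tgfb3 of the 10 BMDM libraries (2.45 CPM), the highest sum of microglia markers (5302 CPM, against 954 to 3275 in the others) and the lowest of monocyte markers (478 CPM, against 1106 to 2481), and the part of these in its values was not tested.

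Smad3, which carries the signal of the receptor, held 28.5, 0.0780, 37.8, 32.0 and 27.5 CPM in small-stage and 33.4, 28.5, 26.5, 41.1 and 42.0 CPM in large-stage BMDM, against 47.3 to 105 CPM in the 10 microglia libraries. No BMDM library reached the lowest microglia library, and small-stage BMDM library 2 held 1 count of it. Smad3 was lower in BMDM by a log2 change of -1.39 ± 0.40 (edgeR adjusted p = 0.0122), a call lost with the pseudogene share as a covariate (-1.25 ± 0.49, adjusted p = 0.0688). Smad7, the inhibitory Smad (ENSMUSG00000025880, 18:75367529-75395935, plus strand), held 11.6 to 34.5 CPM with a median of 19.7 in BMDM, against 21.9 to 94.2 CPM with a median of 48.6 in microglia (-1.41 ± 0.24, edgeR adjusted p = 0.000183). The calls of Tgfbr1, Tgfbr2 and Smad7 were kept under all 26 alternatives run, and Smad3 under all of them but the covariate. Smad2 (ENSMUSG00000024563, 18:76241580-76310963, plus strand), the other receptor-activated Smad of the pathway, held 34.9 to 99.0 CPM in BMDM and 42.7 to 104 CPM in microglia (-0.05 ± 0.15, edgeR adjusted p = 0.838). Its group means overlapped among the populations, at 66.9 to 91.8 CPM in BMDM, 67.0 to 100.8 in microglia, 52.9 to 91.5 in granulocytes and 79.9 to 95.6 in monocytes. Blood monocytes held 39.7, 15.3, 29.9 and 96.6 CPM, lower in 3 of 4 libraries, with no call against tumour monocytes (0.61 ± 0.27, edgeR adjusted p = 0.111).

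**Figure D3:**
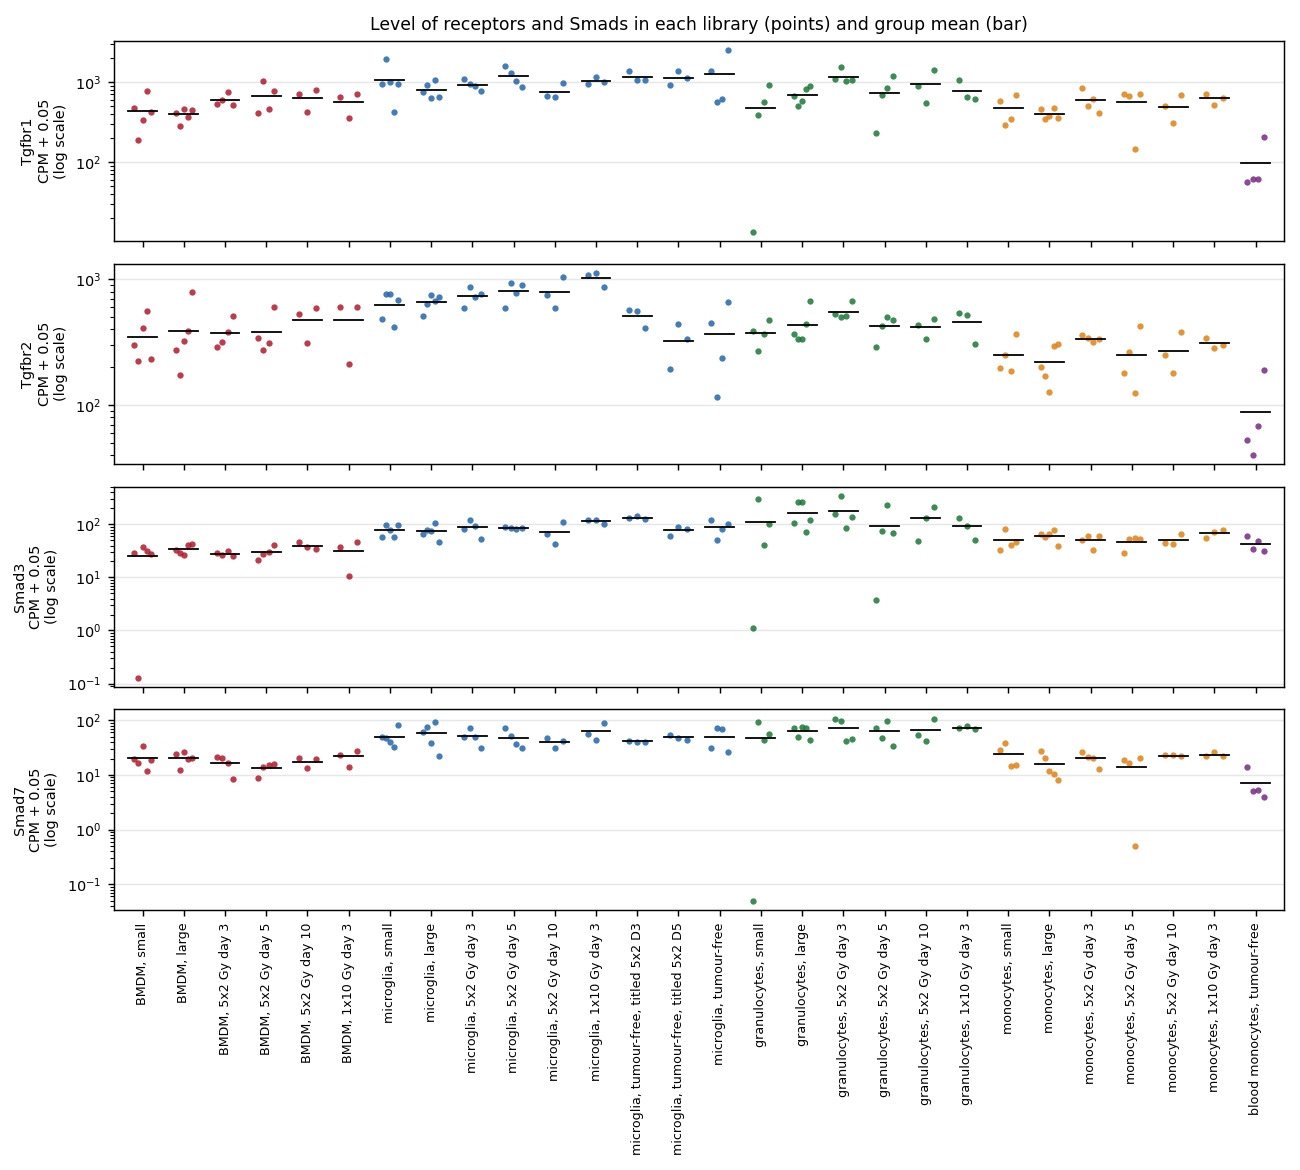
Level of Tgfbr1, Tgfbr2, Smad3 and Smad7 in CPM plus 0.05 on a log scale (y axis) in each of the 108 libraries, by group (x axis); points are libraries and bars are group means. Blood monocytes have the lowest means of Tgfbr1 (95.8), Tgfbr2 (87.7) and Smad7 (7.06), and Smad3 is lowest in the BMDM groups.

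Genes that microglia are known to express under TGF-beta signalling were lower in BMDM as well: of 19 tested, 17 were lower and 0 higher, with a median of -1.89. Tmem119, a microglial surface protein, averaged 294 ± 166 CPM in BMDM and 1539 ± 561 CPM in microglia (SD, n = 10 each), a log2 difference of -2.40 ± 0.28. P2ry12, the microglial receptor for ADP, averaged 260.4 ± 159 CPM in BMDM and 1517 ± 596 CPM in microglia (-2.57 ± 0.33). The fructose transporter Slc2a5 averaged 4.25 ± 4.6 CPM in BMDM and 72.4 ± 56 CPM in microglia (-4.02 ± 0.52). All 6 microglia markers used above are in this list, so it is also a measure of cell identity.

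Of 13 general target genes of TGF-beta tested, 6 were higher in BMDM, 2 lower and 5 not called, with a median of 0.61, where 16.1% of all genes were higher and 13.8% lower. The integrin gene Itgae averaged 152 ± 116 CPM in BMDM and 4.06 ± 2.8 CPM in microglia (5.28 ± 0.29), and is also 1 of the dendritic-cell markers. Tgfbi, a secreted matrix protein named for its induction by TGF-beta, averaged 1138 ± 524 CPM in BMDM and 71.7 ± 34 CPM in microglia (3.98 ± 0.38). The transcription factor gene Bhlhe40 (4.18 ± 0.41) and Id3, an inhibitor of differentiation (1.95 ± 0.36), were also higher. Among receptors and co-receptors 2 of 8 were higher and 2 lower, with the decoy receptor Bambi at 1.10 ± 0.21 and the co-receptor endoglin, Eng, at -1.69 ± 0.25. Of 12 latency and activation genes 3 were higher and 2 lower, among them the ligand activator thrombospondin 1, Thbs1, at 1.57 ± 0.47 and the integrin subunit Itgb3 at -2.62 ± 0.52, and of 20 signal carriers and inhibitors 1 was higher and 3 lower.

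Tumour monocytes were compared with blood monocytes of mice without tumours. Tumour and tissue differ together in this comparison and cannot be told apart. The receptors were higher in tumour monocytes. In all, 3 members passed the threshold as higher and 1 as lower, where 26.3% of 15714 genes passed, 10.6% higher and 15.7% lower. The median difference was 0.83 over the members and -0.16 over all genes. Tgfbr1 held 581, 293, 340 and 678 CPM at the small stage and 462, 347, 377, 472 and 357 at the large stage, against 56.0, 60.7, 61.9 and 204 CPM in blood monocytes. No tumour library overlapped the blood libraries, and blood library 4 stood apart from the other 3 (1.90 ± 0.34, edgeR adjusted p = 0.00157). Tgfbr2 held 127 to 367 CPM with a median of 201 in tumour monocytes, against 53.0, 40.2, 68.7 and 189 CPM in blood monocytes (1.16 ± 0.34, edgeR adjusted p = 0.0226), a call lost without blood library 1, 2 or 3 (adjusted p = 0.0772, 0.0987 and 0.073) and, at 0.33 ± 0.48, without all libraries of doubtful quality (adjusted p = 0.781). The blood libraries low in both receptors were also low in monocyte markers and high in T- and NK-cell markers. Summed over its 6 markers, the monocyte list reached 3325 to 6461 CPM in tumour monocytes, against 1279, 759, 2058 and 6531 CPM in blood monocytes. The T- and NK-cell sums of the blood libraries were 3453, 540.0, 1474 and 143 CPM, and the part of either list in the result was not tested. Tgfb1 and Ltbp1, described above, were the other 2.

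Against the same blood libraries, Tgfbr1 was higher in BMDM by 1.94 ± 0.39 (edgeR adjusted p = 0.00435) and Tgfbr2 by 1.91 ± 0.44 (edgeR adjusted p = 0.00986). Smad7 was higher by 1.27 ± 0.41 (edgeR adjusted p = 0.0297), a call lost in 6 of 20 alternatives, among them RLE scaling (0.90, adjusted p = 0.103), DESeq2 (adjusted p = 0.0766), the pseudogene share as a covariate (0.78, adjusted p = 0.135) and without blood library 2 (adjusted p = 0.111) or 3 (adjusted p = 0.0844). With Tgfb3 higher and Ltbp1 lower, 5 members passed where 32.8% of all genes did, 9.59% higher and 23.2% lower. Both comparisons share the 4 blood libraries, of which 3 are of doubtful quality. Without those, 1 blood library was left, which is assumed to vary like the other groups. Tgfbr1 was then at 1.11 ± 0.44 for tumour monocytes (adjusted p = 0.296) and 1.09 ± 0.58 for BMDM (adjusted p = 0.397), smaller than with all libraries, while Smad7 for BMDM was at 2.49 ± 0.67 (adjusted p = 0.0704), larger. Between BMDM and tumour monocytes 0 members passed, where 13.8% of genes did, 7.22% higher and 6.59% lower. An unadjusted p under 0.05 was found for 2 members, Tgfb1 and Tgfbr2, and DESeq2 called 2. Tgfbr2 was at 0.68 ± 0.25 there (edgeR adjusted p = 0.0802) and, without small-stage BMDM library 2, Smad3 was lower in BMDM (adjusted p = 0.0192, against 0.207 with it).

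Of the pathway lists, in tumour monocytes against blood monocytes, 4 of 13 latency and activation genes were higher and 4 lower, 4 of 8 receptors and co-receptors were higher and 1 lower, 5 of 20 carriers and inhibitors were higher and 1 lower, 5 of 11 target genes were higher and 0 lower, and 10 of 19 microglia genes were higher and 0 lower. The co-repressors Tgif1 (445 ± 116 CPM in tumour monocytes and 42.3 ± 30 CPM in blood monocytes, 3.12 ± 0.35) and Skil (556 ± 219 and 58.1 ± 18 CPM, 2.90 ± 0.38) were among them. Thbs1 averaged 2490 ± 1042 CPM in tumour monocytes and 195 ± 126 CPM in blood monocytes (3.36 ± 0.46), and the protease gene Mmp14 199 ± 77 and 3.44 ± 2.3 CPM (5.36 ± 0.57). Tgfbr3, the co-receptor betaglycan, was at 0.192 ± 0.18 CPM in tumour monocytes and 19.7 ± 7.5 CPM in blood monocytes (-7.08 ± 0.69), in the libraries that also hold the T- and NK-cell markers. Its level in tumour monocytes was very low, so the size of that fold is uncertain.

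Granulocytes of the tumour differed from tumour monocytes in receptor and Smad levels. Of 9 members tested 3 were higher and 1 lower, where 49.9% of 14270 genes passed, 23.0% higher and 26.9% lower, so that the share of members called was near that of all genes. Tgfbr2 held 268 to 675 CPM with a median of 369.9 in granulocytes, against 127 to 367 CPM with a median of 201 in monocytes (1.02 ± 0.25, edgeR adjusted p = 0.00207). Smad3 held 1.06, 298, 41.2 and 102 CPM in small-stage granulocytes and 108, 261, 269.7, 71.1 and 119 in large-stage ones, against 33.1 to 83 CPM in monocytes (1.61 ± 0.55, edgeR adjusted p = 0.0190). Smad7 held 0 to 91.8 CPM with a median of 57.2 in granulocytes, against 8.13 to 39.2 CPM with a median of 15.4 in monocytes (1.78 ± 0.55, edgeR adjusted p = 0.00978).

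Small-stage granulocyte library 1, 1 of the doubtful ones, was low in Smad3 (1.06 CPM), Smad7 (0) and Tgfbr1 (13.3) and had the highest Nrros of all libraries (1271 CPM). Without it Tgfbr1 was also higher in granulocytes (adjusted p = 0.00252, against 0.210 with it), while Smad3 was lost without small-stage granulocyte library 2 (adjusted p = 0.134). The pseudogene share did not overlap between these populations, at 2.02 to 2.71% in granulocytes and 2.76 to 4.88% in monocytes. With it as a covariate in edgeR, Smad3 was at 0.83 ± 0.99 (adjusted p = 0.591) and Smad7 at 0.79 ± 1.00 (adjusted p = 0.610), neither called. As share and population go together here, that fit cannot tell them apart, and nothing is concluded from the lost calls. In granulocytes 6 of 7 further receptors and co-receptors were lower and 0 higher, with a median of -2.87, among them Acvrl1, a type I receptor of endothelial and myeloid cells (-4.29 ± 0.67), and Nrp1, a co-receptor of latent and active TGF-beta (-2.93 ± 0.50). The gelatinase gene Mmp9, whose product can release latent TGF-beta, averaged 2430.3 ± 605 CPM in granulocytes and 3.54 ± 4.7 CPM in monocytes (9.67 ± 0.89).

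**Figure D4:**
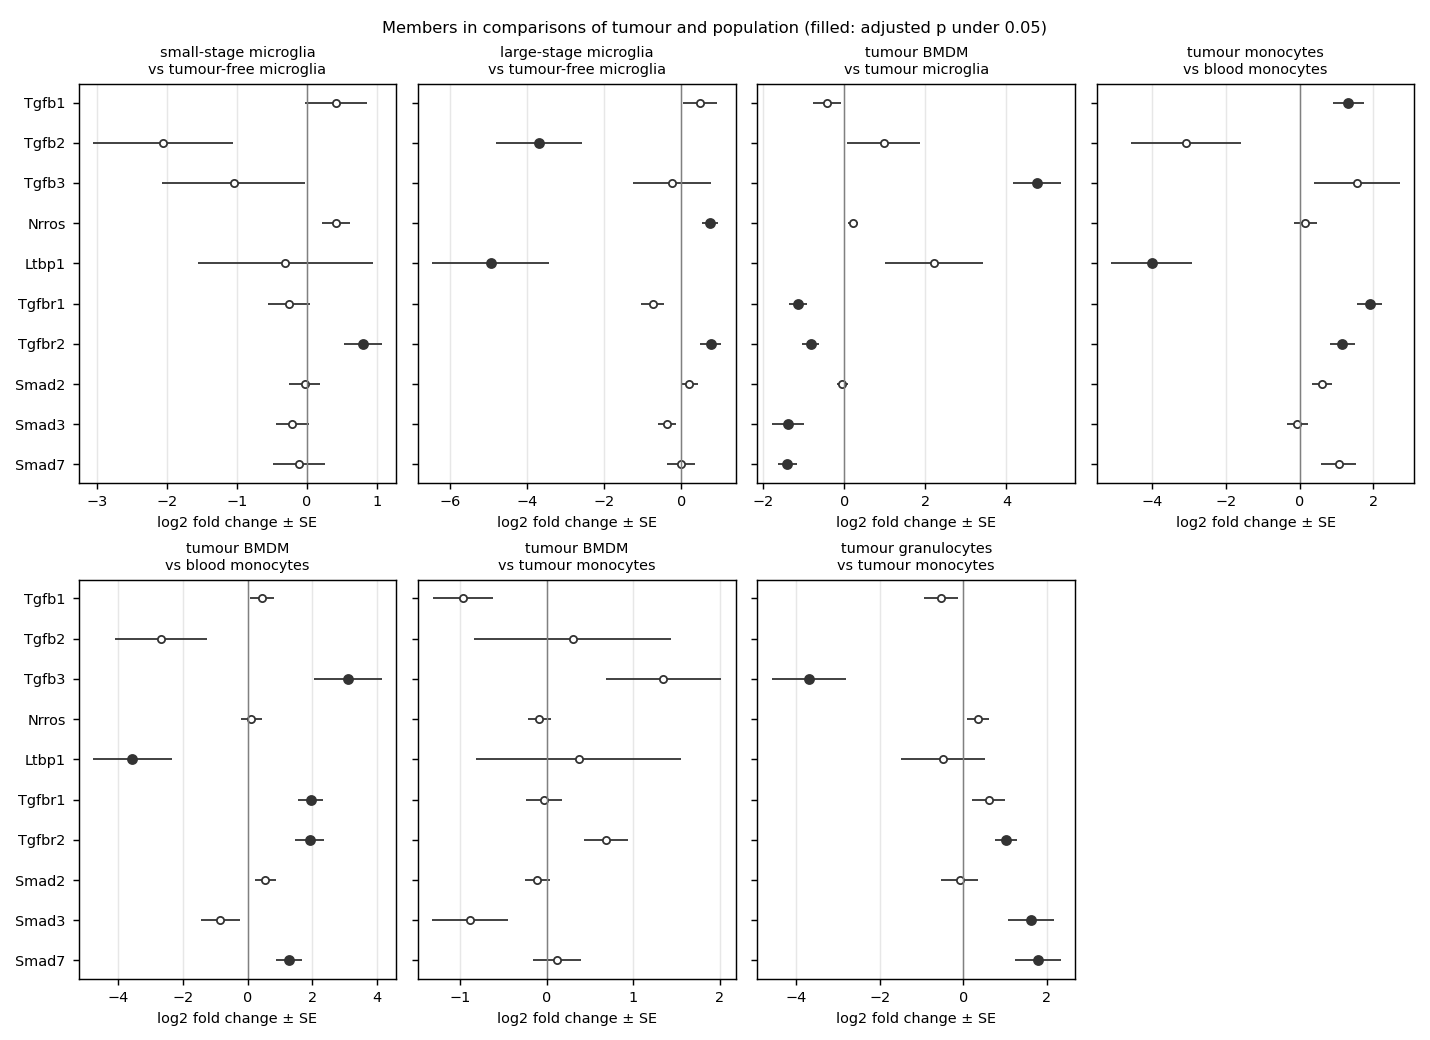
Log2 fold change ± SE from edgeR (x axis) of the 10 members (y axis) in 7 comparisons of unirradiated groups; filled points have an adjusted p under 0.05 and a positive value means higher in the group named first. Tgfb3 lies at 4.75 in BMDM against microglia while Tgfbr1, Tgfbr2, Smad3 and Smad7 lie between -1.41 and -0.83, and Tgfbr1 lies at 1.90 and 1.94 in the comparisons with blood monocytes. The points of Tgfb2 and Ltbp1 in microglia rest on few counts and their positions are not read.

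Tgfbr2 was called higher in microglia of tumour-bearing brains at both stages. Small-stage microglia held 486, 765, 769, 419 and 691 CPM and large-stage microglia 513, 637, 757, 668 and 726 CPM, against 452, 116, 235 and 658 CPM in tumour-free microglia. The tumour-free libraries spread widely and overlapped both stages, with the lowest values in libraries 2 and 3, both of doubtful quality. Tgfbr2 was called higher at the small stage (0.79 ± 0.27, edgeR adjusted p = 0.0439) and at the large stage (0.77 ± 0.27, edgeR adjusted p = 0.0312), and each call was lost in 10 of 16 alternatives, among them the fit of the 2 groups alone, with differences of about the same size and a larger error (0.77 ± 0.36, adjusted p = 0.294, and 0.69 ± 0.34, adjusted p = 0.240), and the fit without the doubtful libraries, with smaller ones (0.41 ± 0.27, adjusted p = 0.404, and 0.24 ± 0.25, adjusted p = 0.556). It was the only member called at the small stage, where 15.4% of genes were called, 7.55% higher and 7.82% lower, with a median of -0.16 over the members and -0.03 over all genes. At the large stage 2 members were higher (Nrros and Tgfbr2) and 2 lower (Tgfb2 and Ltbp1), where 31.9% of genes were called, 11.7% higher and 20.2% lower, with medians of -0.13 and -0.26.

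Tgfbr1 went the other way from Tgfbr2 in large-stage microglia without passing the threshold. It held 745, 916, 629.6, 1048 and 639 CPM there, against 1350, 558, 604 and 2515 CPM in tumour-free microglia (-0.74 ± 0.30, edgeR adjusted p = 0.0560), and it passed under 6 of 16 alternatives, such as without the doubtful libraries (adjusted p = 0.00183). On day 5 of 5x2 Gy, microglia held 597, 939.7, 784 and 897 CPM of Tgfbr2, against 193, 443 and 335 CPM in titled day 5 microglia, with no overlap (1.29 ± 0.31, edgeR adjusted p = 0.00560, and 0.0612 without titled day 5 library 1). In that comparison 3 members passed, where 14.6% of genes did, Tgfb2 and Ltbp1 being the other 2; on day 3 1 member passed, Tgfb2, where 9.28% did.

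Around the members, microglia of tumours changed several TGF-beta genes at both stages, none of which is itself a member. Nrp1 averaged 182 ± 56 CPM in small-stage, 305 ± 102 in large-stage and 12.3 ± 7.0 CPM in tumour-free microglia, differences of 3.82 ± 0.54 and 4.42 ± 0.56 from the last. Tgif1 averaged 344 ± 79, 383 ± 127 and 85.9 ± 39 CPM in the same 3 groups (1.99 ± 0.30 and 2.02 ± 0.30), and Pmepa1, a pathway inhibitor that TGF-beta induces, 47.8 ± 17, 47.0 ± 11 and 131 ± 42 CPM (-1.57 ± 0.31 and -1.69 ± 0.31). Itgb8, the integrin subunit that frees the ligand from NRROS, averaged 1.29 ± 1.4, 0.472 ± 0.70 and 14 ± 3.5 CPM (-3.37 ± 1.00 and -5.15 ± 1.10). Its levels in the tumour groups were very low, so the size of these folds is uncertain. Astrocyte markers, given above, moved with these same groups.

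By list, 4 latency and activation genes were higher and 5 lower of 16 at the large stage, 1 receptor of 8 was higher and 0 lower, 6 carriers and inhibitors were higher and 4 lower of 20, and 4 target genes were higher and 0 lower of 14. Those 4 were Cdkn1a, a cell-cycle inhibitor (2.63 ± 0.37), Id2 (1.98 ± 0.34), fibronectin, Fn1 (5.01 ± 1.41), and Runx1 (0.71 ± 0.22). Of 19 microglia genes that depend on TGF-beta, 5 were higher and 4 lower, with a median of -0.12, beside -0.26 over all genes. They included the ligand of phagocytic receptors Gas6 (704 ± 219 CPM in large-stage and 99.0 ± 45 CPM in tumour-free microglia, 2.70 ± 0.34) and the transcription factor Sall1 (122 ± 18 and 290.0 ± 171 CPM, -1.35 ± 0.29). Cdkn1a is also a target of p53.

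Neither the tumour stage nor radiotherapy changed a member past the threshold. Large against small stage gave 0 calls among 37 member tests in 4 comparisons, where 0 to 0.0141% of all genes were called. Of these tests 1 had an unadjusted p under 0.05, and DESeq2 called 1 member. Irradiated against unirradiated cells gave 0 calls among 148 member tests in 16 comparisons, where 0 to 0.101% of all genes were called. The calls over all genes were 0.0607% in microglia on day 3, 0.0354% on day 5 and 0.00506% on day 10 of 5x2 Gy, 0.101% on day 3 of 1x10 Gy, and 0.0063% in BMDM on day 3 of 1x10 Gy, all of them higher in irradiated cells, and 0% in the others. Over the members, the smallest adjusted p was 0.518, 7 of the 148 had an unadjusted p under 0.05, and DESeq2 called 0. The difference of the response between microglia and BMDM gave 0 calls among 40 tests, where 0 to 0.00516% of genes were called, and 2 unadjusted p-values under 0.05. These comparisons share their unirradiated libraries within a population.

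The irradiated values nearest to a difference were in the receptors. On day 3 of 1x10 Gy, microglia held 1091, 1129 and 873 CPM of Tgfbr2, all above the 419 to 769 CPM of the 10 unirradiated microglia libraries (0.58 ± 0.25, edgeR unadjusted p = 0.0279, adjusted p = 0.586). On day 3 of 5x2 Gy, granulocytes held 1076, 1518, 1015 and 1058 CPM of Tgfbr1, all above the 13.3 to 905 CPM of the 9 unirradiated granulocyte libraries (1.02 ± 0.46, edgeR unadjusted p = 0.0363, adjusted p = 1.00). In BMDM, Tgfbr1 differed by 0.47 ± 0.27 on day 3, 0.65 ± 0.27 on day 5 and 0.57 ± 0.30 on day 10 of 5x2 Gy and by 0.41 ± 0.30 on day 3 of 1x10 Gy, none past the threshold. Its values on day 5 were 415, 1026, 464 and 769 CPM, overlapping the 186 to 776 CPM of unirradiated BMDM.

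Smad7 in BMDM held 8.88, 14.1, 15.2 and 16.0 CPM on day 5 of 5x2 Gy, against 11.6 to 34.5 CPM in unirradiated BMDM (-0.64 ± 0.29, edgeR unadjusted p = 0.0383, adjusted p = 0.680). Tgfb1 differed by -0.02 ± 0.39 on day 3, -0.41 ± 0.39 on day 5 and -0.09 ± 0.43 on day 10 in microglia, with the values 107, 184, 124 and 32.4 CPM on day 3, 113, 96.9, 108 and 38.2 CPM on day 5 and 129, 86.7 and 122 CPM on day 10, against 32.9 to 205 CPM in unirradiated microglia. Library 4 of day 3 and library 4 of day 5 had the lowest Tgfb1 of their groups, as they did in BMDM and monocytes. Among the 14 target genes only Cdkn1a was called, higher in microglia on day 3 of 5x2 Gy (1.69 ± 0.28), on day 3 of 1x10 Gy (1.72 ± 0.30) and on day 5 of 5x2 Gy (1.44 ± 0.28), and no gene of the other 4 lists was called in any irradiated population.

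**Figure D5:**
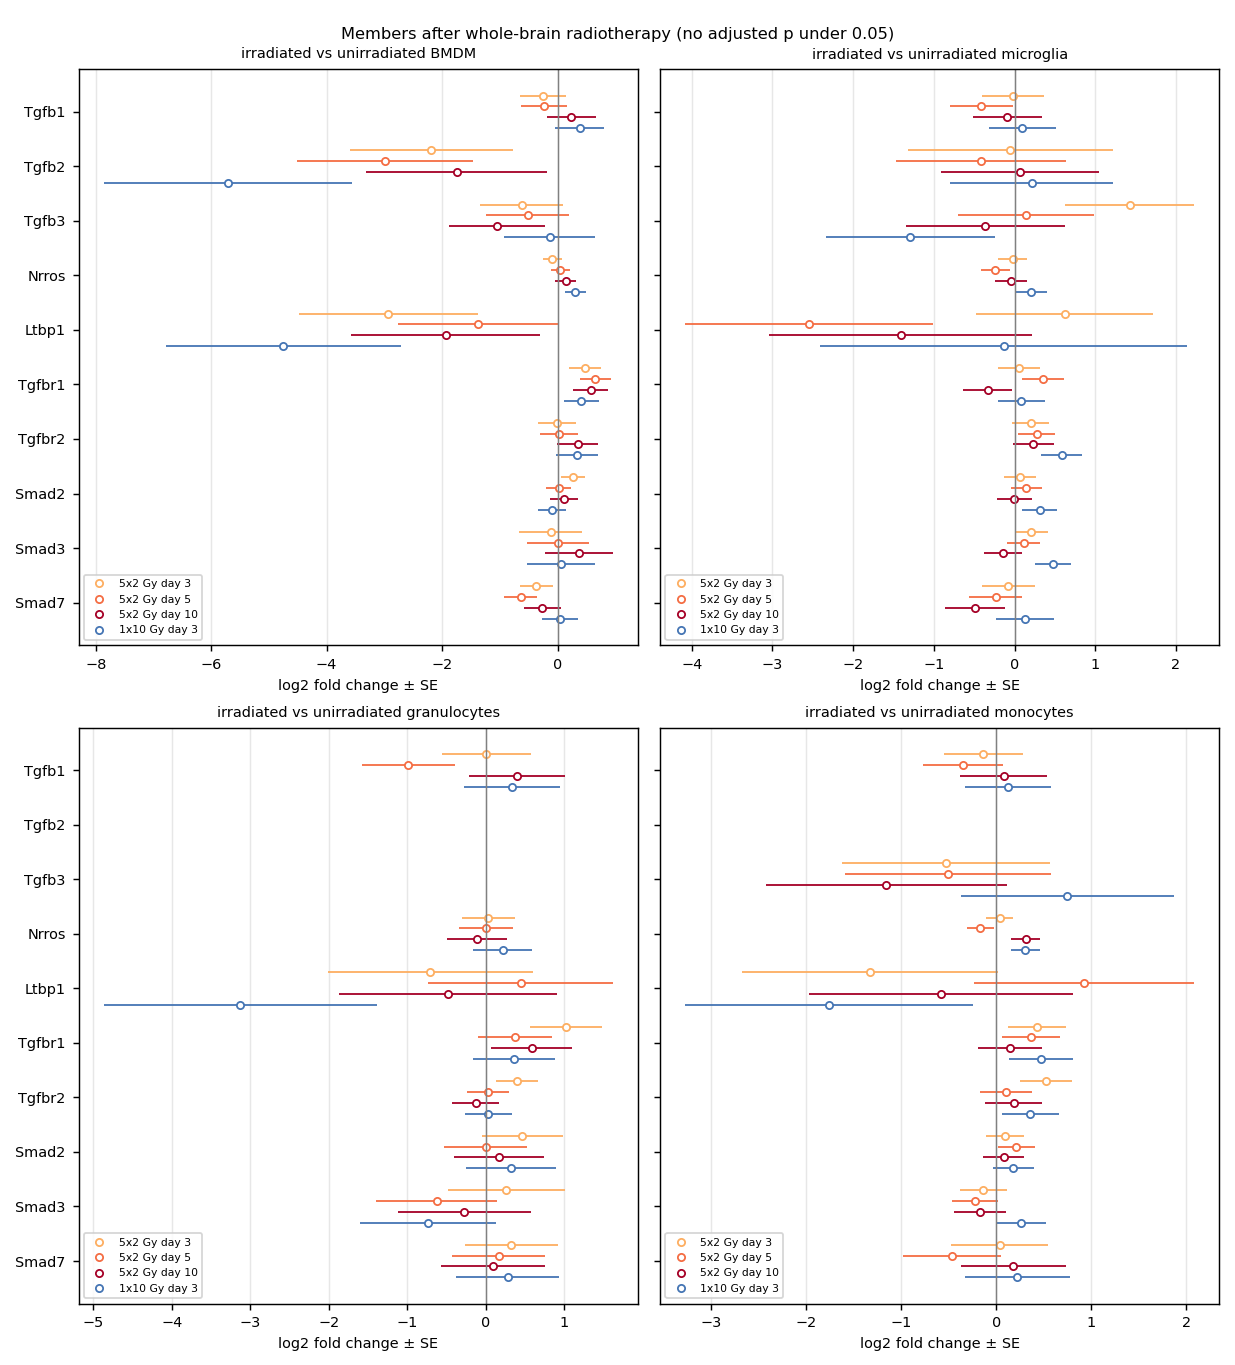
Log2 fold change ± SE from edgeR (x axis) of the members (y axis) in irradiated against unirradiated cells of each population, by schedule and day (colour); open points mark that no adjusted p was under 0.05, and genes without points were not tested. Intervals are wide for Tgfb2, Tgfb3 and Ltbp1, which have few counts, and Tgfbr1 in granulocytes on day 3 of 5x2 Gy lies at 1.02.

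Member levels were also set against each other over the 28 group means, as a description only, since groups share populations and library runs. Pearson's r of log2 CPM was 0.78 for Tgfbr1 with Smad7, 0.77 for Tgfbr1 with Tgfbr2, 0.70 for Tgfbr2 with Smad7 and 0.70 for Smad3 with Smad7, and -0.70 for Tgfb3 with Smad3. Among 11326 named genes whose mean reached 10 CPM in at least 1 group, the nearest pattern to Tgfbr1 was that of Mgat4a, a glycosyltransferase gene (0.96), to Tgfbr2 that of Ctsd, the protease cathepsin D (0.94), to Smad7 that of Numb (0.95) and to Tgfb3 those of Flrt3 (0.92), Avpi1 (0.92) and Flt3 (0.92), a dendritic-cell marker.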

How the data were processed

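The authors' deposited table holds raw counts per gene for 108 libraries. Per the submitters' processing notes the build was GRCm38 and the tools included TopHat2 2.0.14, HTSeq, FastQC and DESeq2 1.18.1, whose roles are not stated there, and the strand setting of the counting is not given in the sources used here. The members and the gene lists were chosen with earlier results of these data known. Of the gene IDs, 49326 matched GENCODE M21, which gave names, exon lengths and 7341 processed pseudogenes.

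Counts were tested with edgeR 4.0.16 (limma 3.58.1, R 4.3.3): TMM scaling, filterByExpr by group (minimum count 10, minimum total 15), the quasi-likelihood test and Benjamini-Hochberg adjustment over all genes tested, with a threshold of 0.05. The 35 comparisons were 2 of tumour against tumour-free microglia, 5 between populations, 4 of stage, 16 of radiotherapy, 4 with the titled microglia and 4 differences of the radiotherapy response between microglia and BMDM. The unirradiated reference was the mean of both stages. The procedure was tested on simulated data. CPM use TMM scaling over all libraries, and log2 CPM a prior count of 2. No fold of a member is given from the main fit where both groups held at most 3 counts per library. The same holds where 1 group held next to none, and counts are given instead. Folds that rest on low counts in 1 group are given for Tgfb3 in granulocytes and for Tgfb2 in titled against tumour-free microglia. They are also given for list genes such as Tgfbr3 and Itgb8.

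Alternatives were RLE scaling, no filter on low counts, the DESeq2 1.42.0 Wald test, a replicate block, the compared groups fitted alone, either stage alone as the reference and each library left out. After the data were seen, 2 were added: a fit without the libraries of doubtful quality and one with the share of processed pseudogenes as a covariate. A library was doubtful with under 3000000 counts, over 30000 genes detected, or more than 1% of abundant genes (median of at least 100 CPM) at 0, which held for 12. Besides the members, up to 4 genes per pathway list with the smallest adjusted p were named. Some single-gene results are not reported here. Tables and figures were made with Python 3.11.15, pandas 2.3.3, numpy 2.4.6, scipy 1.17.1 and matplotlib 3.10.9.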

Additional observations from a re-analysis of the deposited data

Results flagged for a closer look

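In groups of 4 or 5 libraries, 27 values stood apart from the rest of their group by Dixon's test, of 180 groups of a member tested. Chance alone gives about 1 in 20 groups only where values follow a normal distribution. Members with few counts do not meet this: where the other libraries of a group hold no reads, as for some Tgfb2 values below, any read sets a library apart. The 27 values can therefore not be compared with that rate, and no excess over chance is read from them. No explanation was tested for any of the 27 values.

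Among the ligands, Tgfb1 was 51.0 CPM in large-stage monocyte library 5, against 167 to 199 in the others. Tgfb2 was 4.83 CPM in tumour-free microglia library 2, a doubtful one, and 5.03 CPM in large-stage monocyte library 3, against at most 0.498 and 0.954 in the others. Single Tgfb2 values above 0 in groups otherwise at 0 were 0.546 CPM in small-stage monocyte library 1, 0.0928 in monocyte library 2 and 0.163 in granulocyte library 1 on day 3 of 5x2 Gy, and 0.0905 in monocyte library 1 on day 5. Tgfb3 was 1.32 CPM in small-stage microglia library 4 (others 0.329 to 0.524), 4.0 in large-stage granulocyte library 4 (others 0 to 0.567) and 9.01 in microglia library 4 on day 3 of 5x2 Gy (others 0 to 0.760).

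Of the latency genes, Nrros was 1271 CPM in small-stage granulocyte library 1 (others 306 to 409) and 524 CPM in microglia library 2 on day 3 of 5x2 Gy (others 319 to 350). Ltbp1 was high in 1 library of 8 groups. These were 7.34 CPM in tumour-free microglia library 2, 7.06 in small-stage microglia library 4, 10.4 in small-stage BMDM library 2, 7.56 in large-stage BMDM library 2, 2.10 in small-stage granulocyte library 2, 6.74 in large-stage monocyte library 3, 2.12 in granulocyte library 1 on day 3 and 10.6 in monocyte library 1 on day 5 of 5x2 Gy.

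Of the receptors, Tgfbr1 was 204 CPM in blood monocyte library 4 (others 56.0 to 61.9), 1518 in granulocyte library 2 on day 3 of 5x2 Gy (others 1015 to 1076) and 147 in monocyte library 3 on day 5 (others 672 to 713). Tgfbr2 was 670 CPM in granulocyte library 4 on day 3 of 5x2 Gy (others 499 to 528). Smad3 was 0.0780 CPM in small-stage BMDM library 2 (others 27.5 to 37.8) and 28.5 in monocyte library 1 on day 5 of 5x2 Gy (others 52.9 to 55.4). Smad7 was 13.9 CPM in blood monocyte library 1 (others 3.87 to 5.34).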

How the results depend on the processing

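Over all single-gene results and alternatives, 7126 kept their direction where called and their side of the threshold, 81 were no longer past it, 47 came past it and 0 reversed. The counts of members called moved as follows, with no cause tested. Small-stage against tumour-free microglia had 1, and 0 under RLE scaling, without a filter, with the 2 groups alone and without the doubtful libraries (0 to 1 with 1 library left out). Large-stage against tumour-free microglia had 4, and 0 with the groups alone and 1 without the doubtful libraries (2 to 5). Tumour against blood monocytes had 4, and 8 without a filter and 0 without the doubtful libraries (1 to 7). BMDM against blood monocytes had 5, and 3 under RLE scaling and 0 without the doubtful libraries (2 to 7). BMDM against tumour monocytes had 0, and 1 without a filter, 2 with DESeq2 and 1 with the pseudogene share (0 to 1). Granulocytes against monocytes had 4, and 2 with the pseudogene share (3 to 5). Large-stage against small-stage granulocytes had 0, and 1 under RLE scaling and 1 with DESeq2. Titled day 3 against tumour-free microglia had 0, and 1 without a filter (0 to 1), and titled day 5 had 0, and 1 without a filter, 1 with DESeq2 and 1 without the doubtful libraries (0 to 1). Day 3 of 5x2 Gy against titled day 3 microglia had 1, and 0 with the groups alone and 2 without the doubtful libraries (1 to 1), and day 5 had 3 (2 to 3). BMDM against microglia had 5 with any 1 library left out.

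With the replicate number as a block, small-stage against tumour-free microglia had 0 calls, large-stage 1, BMDM against tumour monocytes 3 (Tgfb1 at -0.93 ± 0.15, Tgfb3 and Tgfbr2, adjusted p = 0.00279, 0.0234 and 0.0190) and granulocytes against monocytes 2, and the counts of the other comparisons did not move. Over 9152 genes, same-numbered libraries deviated together in some groups and not in others. The median correlation was 0.369 over 14 pairs of irradiated microglia and BMDM, with 13 over 0.1. Among these were every pair of 5x2 Gy and pairs 1 and 3 of 1x10 Gy (0.218 and 0.198). It was 0.336 over 9 pairs of BMDM and monocytes, with 7 over 0.1, among them all 5 large-stage pairs. Over 10 pairs of BMDM and microglia it was 0.047. As no comparison had all its pairs over 0.1 across stages or schedules, the numbers were not taken as pairs. Tgfb2 and Ltbp1, with single counts in many libraries, and groups of 3 libraries limit what could be detected.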

Other observations

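BMDM and blood monocytes also differed in the pathway lists. Of 19 microglia genes that depend on TGF-beta, 17 were higher in BMDM than in blood monocytes and 0 lower, with a median of 3.44, while against tumour monocytes 13 were higher in BMDM and 1 lower, with a median of 1.45. Of 16 latency and activation genes, 4 were higher and 6 lower in BMDM than in blood monocytes, and of 20 carriers and inhibitors 7 were higher and 1 lower. Of all genes, 9.59% were higher and 23.2% lower in BMDM than in blood monocytes, and 7.22% and 6.59% than in tumour monocytes. These comparisons share BMDM libraries and, for the first, the blood libraries of doubtful quality.

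Of 19 microglia genes that depend on TGF-beta, 1 was higher and 0 lower in titled day 3 microglia than in tumour-free microglia, and likewise on titled day 5. Among 14 target genes 1 was higher and 0 lower on each day. Of all genes, 0.825% were higher and 1.09% lower on titled day 3, and 0.795% and 0.552% on titled day 5. Itgb8, the integrin subunit that frees the ligand, averaged 0.395 ± 0.40 CPM in microglia on day 3 of 5x2 Gy and 23.4 ± 19 CPM in titled day 3 microglia. Tgif1, a co-repressor of the Smads, averaged 317 ± 113 CPM in microglia on day 5 of 5x2 Gy and 73.7 ± 14 CPM in titled day 5 microglia (2.09 ± 0.35). Over the 28 group means the gene most like Tgfb2 was Rhpn2 (r = 0.97), like Nrros Actr2 (0.91), like Ltbp1 Lef1 (0.84), like Tgfb1 Glg1 (0.82), like Smad2 Agps (0.93) and like Smad3 Rnf24 (0.82), given with no test.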
